A study of Mus musculus with 17 samples.

Results

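Maturation of conventional dendritic cells was followed through the transcripts of 9 genes that act in costimulation of T cells or in migration to the lymph node: Cd40, Cd80, Cd86, Cd83, Cd274, Pdcd1lg2, Icosl, Ccr7 and Fscn1. They were chosen by name, for these roles, and looked up among the 31091 gene identifiers of the count table. All 9 were present and had enough counts to be tested in every comparison. The samples were cDC1s and cDC2s of spleen. Both types were cultured together for 6 h with medium of TC-1 cells, a mouse lung tumor line, and then sorted from that culture. There were 17 samples in 6 groups: cDC1s had 3 for each of the 3 media, whereas cDC2s had 3 for WT, 3 for BimS and 2 for RIPK3 medium. WT medium came from unmodified TC-1 cells. BimS medium held the debris of TC-1-iBimS cells, in which cumate switches on the BH3-only protein BimS and thereby apoptosis. RIPK3 medium held the debris of TC-1-iRIPK3 cells, in which cumate switches on an oligomerizing RIPK3 and thereby necroptosis. The inducible lines are clones, and all 3 kinds of TC-1 cell received cumate, so the WT groups shared the inducer. The dendritic cells of every group came from female C57BL/6JRj mice, 8 weeks old at purchase, that later carried a B16 tumor secreting FLT3L. They were enriched for CD11c, pooled over mice and cultured with GM-CSF, so none of the groups shows cells without tumor medium or growth factor. Cells that had taken up debris were not sorted apart from those that had not.

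A dendritic cell that matures raises surface proteins that tell a T cell how to respond to the antigen it sees. CD80 and CD86 bind CD28, which costimulates, and CTLA-4, which restrains; CD40 receives the CD40 ligand of helper T cells; ICOS ligand engages ICOS on activated T cells; PD-L1 and PD-L2, encoded by Cd274 and Pdcd1lg2, bind the inhibitory receptor PD-1. CCR7 is the chemokine receptor that leads mature dendritic cells to the T cell zone along CCL19 and CCL21, fascin (Fscn1) bundles the actin of their dendrites, and CD83 stabilizes MHC class II and CD86 at the surface. Transcripts are not surface protein: several of these proteins are also controlled by turnover and by storage inside the cell.

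Sequencing gave each sample between 16095159 and 21645289 counted reads (median 18986002). Levels are given as CPM, the count of a gene scaled to a common library size after TMM normalization. The labels do not say that samples of a group came from separate cultures or mice, so the p-values measure the spread between these samples, which may be technical. Summed over 9 marker genes, the cDC1 samples held 1412 to 1738 CPM of cDC1 markers and the cDC2 samples 99.0 to 132 CPM, while the 8 cDC2 markers summed to 2.65 to 5.18 CPM in cDC1s and 287 to 374 CPM in cDC2s, so each sorted type carried its label. These identity genes moved with the media as well: in cDC1s 3 of the 9 cDC1 markers rose and 3 fell with each kind of debris. Of all genes tested there, 13.2% passed an adjusted p under 0.05 by edgeR with BimS and 16.5% with RIPK3. In cDC2s 2 of the 8 cDC2 markers rose, while 1 fell with BimS and 3 fell with RIPK3, against 7.01% and 7.21% of all genes. In cDC1s Xcr1 and Clec9a rose and the transcription factor gene Irf8, with Itgae and Wdfy4, fell with both kinds of debris, while Tlr3 rose with BimS and Cd8a with RIPK3. In cDC2s Esam and Clec4a4 rose and Irf4 fell with both (log2 fold change -1.16, adjusted p = 8.71e-07, and log2 fold change -1.52, adjusted p = 2.42e-07), and Clec10a and Cd209a fell with RIPK3. Esam was low in cDC2s, at 0.562 CPM with WT, 2.23 CPM with BimS and 1.99 CPM with RIPK3. It also rose in cDC1s, from 0.254 CPM to 1.08 CPM with BimS (log2 fold change 2.04, adjusted p = 0.000332) and 1.37 CPM with RIPK3 (log2 fold change 2.38, adjusted p = 1.57e-05). The sums of other lists were 0.598 to 2.37 CPM for 8 T and NK cell genes, with Ncr1 and Klrb1c at 0 in every cDC2 sample, 35.0 to 190.4 CPM for 6 plasmacytoid genes, mostly Tcf4, and 61.8 to 194 CPM for 6 macrophage and monocyte genes. Of 14 TC-1 markers tested in cDC1s and 11 in cDC2s, 0 differed between media by edgeR at an adjusted p under 0.05, and 0 to 4 per comparison at an unadjusted p under 0.05. Of all genes, 0.379% to 16.5% per comparison differed at the adjusted threshold. Their sum was 5.66 to 9.34 CPM in cDC1s and 23.8 to 41.9 CPM in cDC2s, most of the latter from Cdh1. In cDC2s the 8 B cell markers summed to 36.3 to 42.9 CPM with WT, 28.3 to 35.2 CPM with BimS and 49.6 to 49.7 CPM with RIPK3 medium, nearly all from Ighm. Ighm fell by 0.37 (adjusted p = 0.0342) with BimS and was higher with RIPK3 than with BimS (log2 fold change 0.68, adjusted p = 0.00708). Tcf4 fell in cDC1s with both kinds of debris (log2 fold change -0.23, adjusted p = 0.0485, and log2 fold change -0.23, adjusted p = 0.0487). Of 5 T and NK cell genes tested with BimS, 1 rose in cDC1s, where 7.31% of all genes rose, and 1 fell in cDC2s, where 3.21% fell. Of the macrophage genes, Cd14 rose in cDC2s by 0.46 (adjusted p = 0.0233) with BimS and 0.87 (adjusted p = 0.000227) with RIPK3, and Fcgr1 fell in cDC1s with both (log2 fold change -1.03, adjusted p = 6.8e-05, and log2 fold change -2.12, adjusted p = 7.15e-10) and in cDC2s with RIPK3 (log2 fold change -0.65, adjusted p = 0.0128). The part of these markers in the members' results was not tested.

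Of the members, 4 promoters are shown: that of Icosl, the member with the largest log2 fall from WT in all 4 comparisons, that of Cd40, and those of the neighbours Cd274, which rose in cDC1s with RIPK3 medium, and Pdcd1lg2, which did not pass the test there. Each is the 250 bases upstream of the canonical transcript start in GRCm39, read from the genome with the GENCODE M39 annotation, 5′ to 3′. Capitals mark the matches to a kappa-B consensus or to an interferon-stimulated response element, spelled as GAAA, any 2 bases and GAAA, each searched on both strands.
Icosl, chr10:77904886-77905135, plus strand: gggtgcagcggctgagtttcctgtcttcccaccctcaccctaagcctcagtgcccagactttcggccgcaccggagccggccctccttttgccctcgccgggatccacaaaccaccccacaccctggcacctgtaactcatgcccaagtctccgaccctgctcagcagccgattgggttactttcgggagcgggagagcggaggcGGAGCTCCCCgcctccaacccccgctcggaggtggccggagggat
Cd40, chr2:164897294-164897543, plus strand: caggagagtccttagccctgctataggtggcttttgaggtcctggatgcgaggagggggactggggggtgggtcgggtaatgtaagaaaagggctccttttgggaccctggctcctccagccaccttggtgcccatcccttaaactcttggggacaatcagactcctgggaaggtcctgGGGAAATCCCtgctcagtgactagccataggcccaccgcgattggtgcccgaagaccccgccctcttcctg
Cd274, chr19:29344279-29344528, plus strand: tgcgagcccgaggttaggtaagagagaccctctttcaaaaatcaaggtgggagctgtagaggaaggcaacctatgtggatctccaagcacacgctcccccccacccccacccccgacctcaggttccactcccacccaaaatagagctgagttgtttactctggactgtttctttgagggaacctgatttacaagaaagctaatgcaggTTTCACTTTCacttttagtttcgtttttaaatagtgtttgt
Pdcd1lg2, chr19:29388069-29388318, plus strand: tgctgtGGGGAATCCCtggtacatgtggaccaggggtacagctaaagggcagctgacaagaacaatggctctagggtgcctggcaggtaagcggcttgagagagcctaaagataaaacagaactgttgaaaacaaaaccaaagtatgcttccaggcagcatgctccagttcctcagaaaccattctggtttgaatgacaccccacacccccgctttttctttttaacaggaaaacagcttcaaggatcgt
A kappa-B match, the kind of site that NF-kappa-B binds, was present in 3 of the 9 members (Cd40, Pdcd1lg2 and Icosl) and in 7.63% of the windows of 21757 protein-coding genes. Counted from the start, it lay at -71 to -62 in Cd40, at -45 to -36 in Icosl and at -244 to -235 in Pdcd1lg2. The interferon element was found in 1 of the 9, Cd274, on the minus strand at -41 to -32, and in 3.32% of all windows. AP-1 sites, spelled TGANTCA, occurred in Cd80 and Ccr7 (2 of 9) and in 6.18% of all windows. A GAS element, spelled TTCNNNGAA, was in 0 of the 9 windows and in 7.7% of all. No match overlapped a match to another of these motifs. Of the 3 genes with the kappa-B match, Icosl and Cd40 had negative log2 fold changes in every comparison with WT, though that of Cd40 with BimS in cDC2s did not pass. Those of Pdcd1lg2 were 0.18 with BimS and 0.01 with RIPK3 in cDC1s, and 0.24 and -0.16 in cDC2s. Only the first of these passed edgeR's unblocked test. No binding was measured, and the matches are descriptions of sequence.

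Levels with WT medium were set side by side to see how far the maturation genes were already expressed in each cell type. Scaled to exon length, Cd83 and Ccr7 led in both cell types. Cd83 was the highest member in cDC1s at 628 ± 16.3 CPM per kb (SD, n = 3), with Ccr7 at 277 ± 22.4, and Ccr7 was the highest in cDC2s at 662 ± 83.3 CPM per kb, with Cd83 at 502 ± 37.9. Cd86 and Cd274 came next in both types, with means of 218 to 232 CPM per kb. At the lower end stood Cd40 with 32.9 ± 1.69 CPM per kb in cDC1s and 26.0 ± 2.33 in cDC2s, Icosl with 12.2 ± 0.056 and 16.6 ± 0.674, and Fscn1 with 1.55 ± 0.296 and 23.1 ± 3.21. The span from the highest to the lowest of the 9 was therefore 406-fold in cDC1s and 39.9-fold in cDC2s, and Fscn1 closes the list only in cDC1s.

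**Figure D1:**
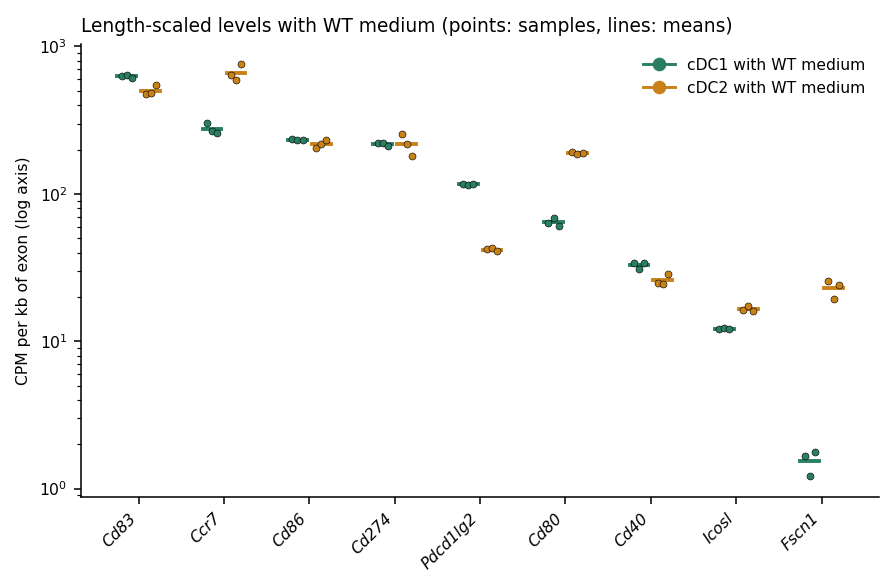
Length-scaled level of the 9 genes in the samples with WT medium, in CPM per kb of exon on a log axis, with each sample as a point and the group mean as a line; green is cDC1, orange cDC2. Fscn1, Cd80 and Ccr7 lie higher in cDC2s and Pdcd1lg2 higher in cDC1s, while Cd86 and Cd274 overlap.

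With WT medium, the cell types differed in 7 of the 9 at an adjusted p under 0.05 by edgeR's quasi-likelihood test with Benjamini-Hochberg adjustment, 3 higher and 4 lower in cDC1s. Among all genes tested 46.2% differed, 22.5% higher and 23.7% lower in cDC1s, so a call is common in this comparison. Fscn1 had 5.03, 3.66 and 5.34 CPM in the cDC1 samples and 77.6, 59.0 and 73.0 CPM in the cDC2 samples. Every cDC2 sample was far above every cDC1 sample (log2 fold change -3.89, SE 0.23, adjusted p = 4.14e-09). Cd80 had 260.3, 285 and 249.9 CPM against 790.3, 766 and 779 CPM (log2 fold change -1.55, SE 0.0647, adjusted p = 4.05e-18), and Ccr7 600.5, 533 and 516 CPM against 1267, 1179.9 and 1499.97 CPM (log2 fold change -1.26, SE 0.12, adjusted p = 1.67e-07). Both were thus higher in every cDC2 sample. Icosl was also lower in cDC1s, with a log2 difference of -0.45 (adjusted p = 7.01e-06). In the other direction, Pdcd1lg2 had 266, 261 and 266 CPM in cDC1s and 96.0, 97.8 and 92.9 CPM in cDC2s (log2 fold change 1.47, SE 0.0574, adjusted p = 9.06e-19). Cd40 and Cd83 were higher in cDC1s by 0.34 (adjusted p = 0.000388) and 0.32 (adjusted p = 6e-05). For Cd86 the difference was 0.09 with a 95% interval of -0.03 to 0.21, and for Cd274 it was 0.01 with an interval of -0.20 to 0.22; neither passed the test. Without cDC2 WT replicate 3, Cd86 passed it too, at 0.14 and adjusted p = 0.0443.

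Against WT medium, cDC1s changed most members, and the falls outnumbered the rises. With apoptotic debris (BimS), 8 of the 9 passed the test: Cd274 and Pdcd1lg2, the PD-1 ligands, rose, while Cd40, Cd80, Cd86, Cd83, Icosl and Ccr7 fell. Of all genes tested in that comparison 13.2% passed, 7.31% higher and 5.89% lower. With necroptotic debris (RIPK3), 6 of the 9 passed, where Cd274 rose and Cd40, Cd80, Cd83, Icosl and Ccr7 fell, against 16.5% of all genes, 8.34% higher and 8.19% lower. The median log2 fold change of the 9 was -0.21 for BimS and -0.31 for RIPK3, and that of all genes tested was 0.00172 and -0.00565. Without TMM scaling, 34.8% of all calls for BimS and 30.2% of those for RIPK3 were rises, in place of 55.4% and 50.5%, and no called member changed sign. In both comparisons the WT samples are the same 3, so they are not independent of each other. A lower level in bulk RNA can mean fewer cells that express a gene or less RNA per cell, which cannot be told apart here. With the replicate number as a block, the counts were 9 for BimS (background 17.9%) and 6 for RIPK3 (background 21%). The count for BimS was 5 without BimS replicate 3. limma on log2(count + 1), which takes no account of depth, did not call Cd40, Cd86, Cd274 or Pdcd1lg2 for BimS (adjusted p = 0.148, 0.365, 0.115 and 0.553) or Cd274 for RIPK3 (0.0824), and edgeR on total counts did not call Pdcd1lg2 for BimS (0.121). That limma fit uses the transformation and tool named in the study's methods.

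**Figure D2:**
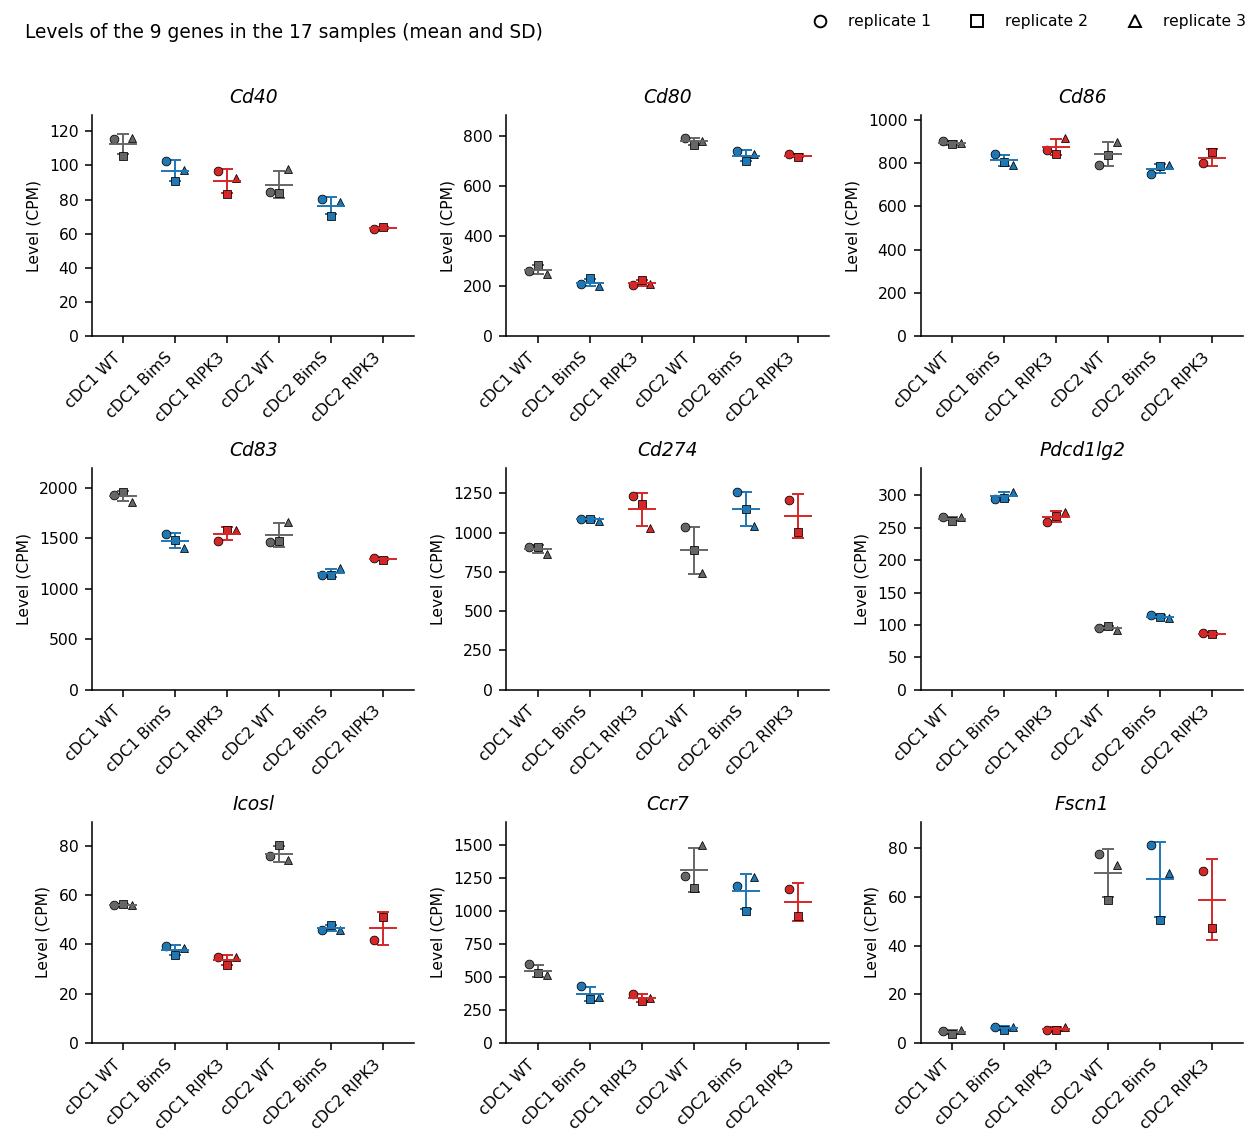
Level of each of the 9 genes in CPM (linear axis from 0) in the 17 samples, with the group mean and SD as bars; gray stands for WT, blue for BimS and red for RIPK3 medium, and symbols for the replicate number. Icosl lies lower in every sample with debris than in every WT sample of the same cell type, and Fscn1, Ccr7 and Cd80 are set mainly by the cell type.

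Of the costimulatory ligands of the B7 family, Icosl fell most. Icosl (ENSMUSG00000000732, chromosome 10 from 77905136 to 77919747, plus strand, GRCm39) had 56.0, 56.5 and 56.1 CPM in the 3 cDC1 samples with WT medium, 39.5, 35.7 and 38.4 CPM with BimS and 34.9, 31.6 and 35.1 CPM with RIPK3. The 3 WT values lie close together and above all 6 values with debris. It fell by 32.6% with BimS (log2 fold change -0.57, SE 0.063, adjusted p = 8.9e-09) and fell by 39.8% with RIPK3 (log2 fold change -0.73, SE 0.0639, adjusted p = 2.55e-11). In cDC2s it had 75.7, 80.1 and 74.1 CPM with WT, 45.9, 47.9 and 45.9 CPM with BimS and 41.7 and 51.2 CPM with RIPK3, again without overlap between WT and debris. There it fell by 39.3% (log2 fold change -0.72, SE 0.0916, adjusted p = 2.62e-05) and fell by 39.7% (log2 fold change -0.73, SE 0.104, adjusted p = 7.87e-05). The fall in Icosl was called in both cell types with both media under every setting tried and with each sample left out. Fits without a cDC2 RIPK3 sample are not counted here, since they left a single sample in that group. For RIPK3 in cDC2s the log2 fold change ran from -0.88 to -0.59 over all samples left out. Its order over the 6 groups was cDC2 WT, cDC1 WT, cDC2 BimS, cDC2 RIPK3, cDC1 BimS and cDC1 RIPK3, in which only the pair cDC2 BimS and cDC2 RIPK3 overlapped.

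Cd80 (ENSMUSG00000075122, chromosome 16 from 38275923 to 38316697, plus strand) had 260.3, 285 and 249.9 CPM in cDC1s with WT, 209.8, 232 and 202 CPM with BimS and 204, 225 and 209 CPM with RIPK3. Every debris sample lay below every WT sample, and the 2 debris groups overlapped. The log2 fold changes were -0.30 (SE 0.0555, adjusted p = 0.00012) and -0.32 (SE 0.0556, adjusted p = 5.18e-05). In cDC2s the values were 790.3, 766 and 779 CPM with WT, 739, 699 and 728 CPM with BimS and 727 and 717 CPM with RIPK3. The debris samples lay below WT there too, without overlap. The unblocked fit gave -0.11 for BimS (adjusted p = 0.461) and -0.12 for RIPK3 (adjusted p = 0.49), which did not pass, and with the replicate block both passed (adjusted p = 0.0235 and 0.0425). Timmdc1, on the other strand, overlaps Cd80 and had 199 to 294 counts.

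Cd86 (ENSMUSG00000022901, chromosome 16 from 36424044 to 36486443, minus strand), the other ligand of CD28, passed the unblocked test with BimS medium in cDC1s and in no other comparison of media. It had 904, 888 and 892 CPM in cDC1s with WT, 842, 808 and 791 CPM with BimS and 861, 843 and 914 CPM with RIPK3. BimS samples lay below all WT samples, whereas the RIPK3 samples ran across the WT range. The difference with BimS was -0.14 (SE 0.0448, adjusted p = 0.0362). That call was lost without WT replicate 1, 2 or 3 (adjusted p = 0.139, 0.0795 and 0.0998) or BimS replicate 2 or 3 (0.0914 and 0.187). With RIPK3 it was -0.04, with a 95% interval of -0.13 to 0.06. In cDC2s the means were 842 ± 54.1 CPM with WT, 775 ± 21.7 CPM with BimS and 826 ± 37.5 CPM with RIPK3 (SD, n = 3, 3 and 2), and neither difference passed the test except that of BimS with the replicate block (-0.12, adjusted p = 0.0121). Over all 6 groups the highest mean of Cd86 was 1.15 times the lowest, the smallest span of the 9.

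Cd83 (ENSMUSG00000015396, chromosome 13 from 43938251 to 43956634, plus strand), a marker of mature dendritic cells, fell in cDC1s with both kinds of debris. Its values were 1929.5, 1959 and 1862 CPM with WT, 1547, 1483 and 1399 CPM with BimS and 1469, 1584 and 1581 CPM with RIPK3. The lowest WT sample was above all 6 debris samples. On the log2 scale the changes were -0.38 (SE 0.046, adjusted p = 7.48e-08) and -0.31 (SE 0.046, adjusted p = 2.27e-06). In cDC2s it had 1459, 1471 and 1664 CPM with WT, 1133, 1137 and 1205 CPM with BimS and 1302 and 1289 CPM with RIPK3. The debris samples lay below WT there too, with a called fall for BimS (log2 fold change -0.40, SE 0.0754, adjusted p = 0.00148) and a log2 fold change of -0.25 for RIPK3 (adjusted p = 0.0877, 3.99e-05 with the replicate block, 0.0124 on total counts and 0.0386 by limma on log2(count + 1)).

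Cd40 (ENSMUSG00000017652, chromosome 2 from 164897544 to 164914868, plus strand), the receptor through which helper T cells license dendritic cells, fell in cDC1s with both kinds of debris and in cDC2s with RIPK3 medium. In cDC1s it had 116, 106 and 116 CPM with WT, 103, 90.7 and 97.0 CPM with BimS and 96.7, 83.0 and 92.5 CPM with RIPK3. No debris sample reached the lowest WT sample. Changes of -0.21 (SE 0.0591, adjusted p = 0.0103) and -0.31 (SE 0.0594, adjusted p = 0.000167) resulted on the log2 scale. The former lost its call without WT replicate 1 or 3 or BimS replicate 2 (adjusted p = 0.0652, 0.0645 and 0.0763). In cDC2s it had 84.3, 83.9 and 97.9 CPM with WT, 80.3, 70.7 and 78.4 CPM with BimS and 62.9 and 63.9 CPM with RIPK3, 3 ranges that follow each other downwards without overlap. The fall was called with RIPK3 (log2 fold change -0.49, SE 0.099, adjusted p = 0.0027) but not without RIPK3 replicate 1 or 2 (adjusted p = 0.0683 and 0.0542), each of which left a single sample in that group. With BimS it was -0.22 (adjusted p = 0.17, 0.000231 with the replicate block and 0.0299 on total counts).

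Of the ligands of PD-1, Cd274 (ENSMUSG00000016496, chromosome 19 from 29344529 to 29365495, plus strand), which encodes PD-L1, went the other way and rose in cDC1s. It had 909, 907 and 864 CPM with WT, 1087, 1088 and 1075 CPM with BimS and 1232, 1181 and 1030.4 CPM with RIPK3. All 6 debris samples were above the highest WT sample. The log2 fold changes were 0.28 (SE 0.0504, adjusted p = 0.000101) and 0.36 (SE 0.0504, adjusted p = 1.05e-06). In cDC2s Cd274 had 1038, 887 and 739.9 CPM with WT, 1259, 1151 and 1044 CPM with BimS and 1207 and 1005 CPM with RIPK3, so that WT and BimS came close without overlap and WT and RIPK3 overlapped. In each of these cDC2 groups replicate 1 was the highest. Within a number the log2 difference was 0.28 to 0.50 for BimS and 0.18 to 0.22 for RIPK3, higher in 3 of 3 and 2 of 2 numbers. The unblocked fit did not call it (0.37, SE 0.117, adjusted p = 0.0803, and 0.31, SE 0.13, adjusted p = 0.221). The fit with the replicate block did (0.38, SE 0.0383, adjusted p = 1.43e-21, and 0.21, SE 0.0446, adjusted p = 2.25e-05). It was also called without cDC2 WT replicate 1 (adjusted p = 0.00348 and 0.0194) and, for BimS, without BimS replicate 3 (0.0461). Without a filter on low counts it was called for both (6.75e-05 and 0.00831), and DESeq2 called it for BimS (0.0328). Plgrkt overlaps Cd274 on the other strand and had 1325 to 1954 counts.

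Pdcd1lg2 (ENSMUSG00000016498, chromosome 19 from 29388319 to 29448882, plus strand) encodes PD-L2 and begins 22824 bases after Cd274 ends. It was the only member that edgeR's unblocked test called between the 2 kinds of debris in cDC1s (-0.16, adjusted p = 0.0361). That call was lost with most single samples left out and by limma on log2(count + 1) (adjusted p = 0.232). In cDC1s it had 266, 261 and 266 CPM with WT, 294, 296 and 305 CPM with BimS and 258, 269 and 274 CPM with RIPK3. BimS samples were above all others, and RIPK3 samples overlapped with WT. The rise with BimS over WT was 0.18 (SE 0.0459, adjusted p = 0.00646, and 0.0535 without BimS replicate 3), and RIPK3 against WT gave 0.01 with a 95% interval of -0.08 to 0.11. In cDC2s, where its level was lower, it had 96.0, 97.8 and 92.9 CPM with WT, 115, 111.8 and 111 CPM with BimS and 87.0 and 85.3 CPM with RIPK3. Here the 3 ranges did not overlap, with BimS above and RIPK3 below WT. These differences were 0.24 (adjusted p = 0.0763) and -0.16 (adjusted p = 0.357), and both passed the test with the replicate block (adjusted p = 1.35e-05 and 0.0136), as did the former with the filter of filterByExpr (0.0386).

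Of the migration genes, Ccr7 (ENSMUSG00000037944, chromosome 11 from 99035022 to 99045911, minus strand) fell with debris in cDC1s. It had 600.5, 533 and 516 CPM with WT, 431, 337 and 351 CPM with BimS and 376, 316 and 339.9 CPM with RIPK3. The lowest WT sample lay above the highest debris sample, and replicate 1 was the highest of each group. Ccr7 fell by 32.1% with BimS (log2 fold change -0.56, SE 0.113, adjusted p = 0.0153) and fell by 37.4% with RIPK3 (log2 fold change -0.68, SE 0.113, adjusted p = 0.00505). The call for BimS was lost without BimS replicate 3 (adjusted p = 0.0616). In cDC2s the values were 1267, 1179.9 and 1499.97 CPM with WT, 1189.5, 1001 and 1262 CPM with BimS and 1171 and 967 CPM with RIPK3, and WT overlapped with BimS but not with RIPK3. In every replicate number the debris sample was lower, with log2 differences of -0.25 to -0.09 for BimS and -0.29 to -0.11 for RIPK3. The unblocked fit gave -0.19 (adjusted p = 0.333) and -0.31 (adjusted p = 0.133), and with the replicate block both passed (adjusted p = 4.19e-06 and 4.97e-06). The fall with RIPK3 was also called, unblocked, on total counts (0.0361), with no filter (0.0227) and by limma on log2(count + 1) (0.0134), as adjusted p. The lncRNA Gm57398 overlaps Ccr7 on the other strand, with 29 to 186 counts.

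Fscn1 (ENSMUSG00000029581, chromosome 5 from 142946098 to 142958953, plus strand) was the only member whose differences from WT had opposite signs in the 2 cell types for both kinds of debris. In cDC1s it was low, with 5.03, 3.66 and 5.34 CPM with WT, 6.72, 5.33 and 6.80 CPM with BimS and 5.61, 5.37 and 6.73 CPM with RIPK3, from 72 counts in the lowest sample. The RIPK3 samples lay above all WT samples, and 1 BimS sample lay within the WT range. The log2 fold changes were 0.42 (SE 0.152, adjusted p = 0.0665) and 0.32 (SE 0.154, adjusted p = 0.17), of which the first was called with the replicate block (adjusted p = 0.0139) and without WT replicate 3, BimS replicate 2 or RIPK3 replicate 3 (adjusted p = 0.0409, 0.0279 and 0.0394). In cDC2s it had 77.6, 59.0 and 73.0 CPM with WT, 81.2, 50.6 and 69.8 CPM with BimS and 70.7 and 47.2 CPM with RIPK3. Replicate 2 was the lowest in all 6 groups, and the spread within groups, 12.3% to 28.1% of the mean, reached further than for any other of the 9. The log2 fold changes in cDC2s were -0.06 (95% interval -0.53 to 0.41) and -0.26 (95% interval -0.79 to 0.28); the latter was called with the replicate block (-0.23, adjusted p = 0.00197) and by limma on log2(count + 1) (adjusted p = 0.0481).

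**Figure D3:**
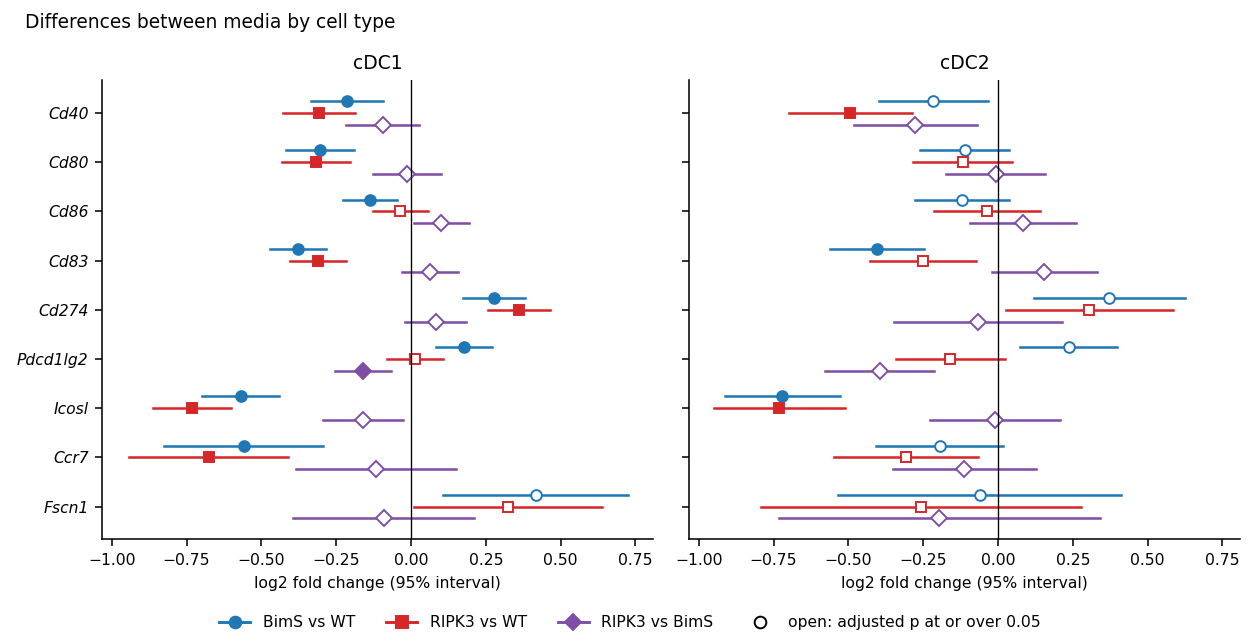
Log2 fold change of each gene between media, with 95% intervals computed from edgeR's F test, in cDC1s (left) and cDC2s (right). Blue is BimS against WT, red RIPK3 against WT and purple RIPK3 against BimS. Filled symbols passed an adjusted p of 0.05 and open ones did not. Icosl lies left of 0 in all 4 comparisons with WT, while the intervals of Fscn1 are among the widest.

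In cDC2s, 2 of the 9 passed edgeR's unblocked test with each kind of debris, and these calls were falls: Cd83 and Icosl with BimS, and Cd40 and Icosl with RIPK3. The background was 7.01% of all genes for BimS (3.8% higher and 3.21% lower) and 7.21% for RIPK3 (3.93% higher and 3.28% lower). Other unblocked fits gave 1 rise as well: DESeq2, filterByExpr and no filter each called 3 for BimS, with Cd274 or, by filterByExpr, Pdcd1lg2 higher, and no filter called 4 for RIPK3, with Cd274 higher. At an unadjusted p under 0.05 there were 5 members in each comparison, and the median log2 fold change of the 9 was -0.12 and -0.25, against -0.02 and -0.02 over all genes. Without TMM scaling, 29.7% and 31.8% of all calls were rises, in place of 54.3% and 54.5%. Replicates with the same number deviated together within a cell type, so the fit with that number as a block bears on these counts. With it, 8 of the 9 passed for BimS, 2 higher (Cd274 and Pdcd1lg2) and 6 lower, and 8 passed for RIPK3, 1 higher (Cd274) and 7 lower, while the background rose to 21.3% and 21.4%. The members left over were Fscn1 for BimS and Cd86 for RIPK3. The blocked fit estimates more coefficients from the same samples. Its intervals in cDC2s are as narrow as under a normal distribution, so the spread is largely one shared over genes. The small p-values of these calls therefore say little about the spread of each gene between samples. For RIPK3 medium in cDC2s this fit rests on 2 samples, and the unblocked count was 1 without either of them and 3 without WT replicate 1.

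**Figure D4:**
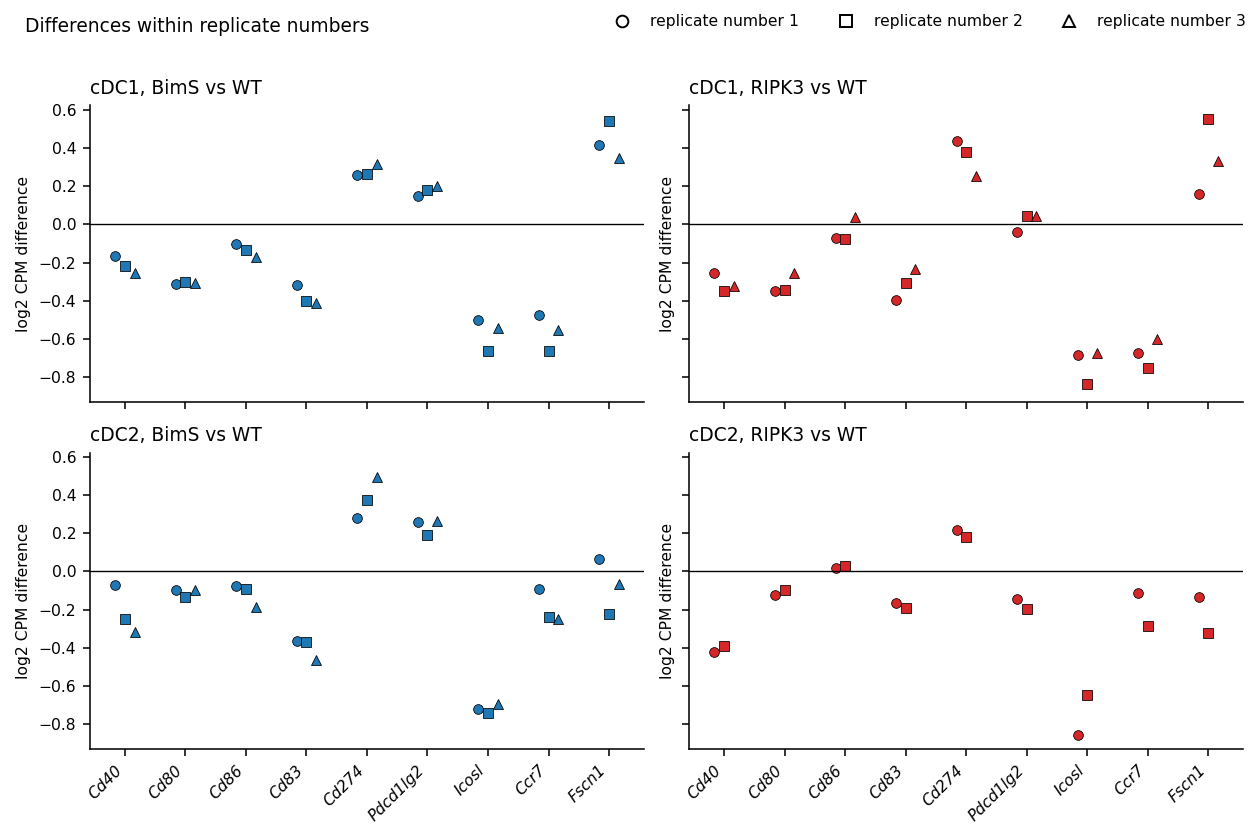
Difference in log2 CPM between a sample with debris and the WT sample of the same replicate number, for each gene, cell type and kind of debris; symbols give the number, blue is BimS and red RIPK3. In cDC2s Icosl, Ccr7, Cd80, Cd83 and Cd40 are below 0 and Cd274 above 0 in every number, for both kinds of debris.

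Levels with apoptotic and necroptotic debris were then compared directly. In cDC1s only Pdcd1lg2 passed, lower with RIPK3 than with BimS medium (log2 fold change -0.16, SE 0.046, adjusted p = 0.0361), in 3 of 3 replicate numbers, while 4.15% of all genes passed (1.94% higher and 2.21% lower with RIPK3). With the replicate block Pdcd1lg2 was again the 1 member called (adjusted p = 0.00263, background 8.87%). With 1 sample left out, the log2 fold change stayed between -0.18 and -0.13. The unblocked call did not hold with any of the 3 WT samples, any of the 3 BimS samples, or RIPK3 replicate 1 or 2 left out, at adjusted p-values of 0.0511 to 0.203. Without RIPK3 replicate 3 it stayed and Cd274 joined it, higher with RIPK3 (0.16, adjusted p = 0.0116). In cDC2s 0 of the 9 passed in edgeR's unblocked fit, against 0.379% of all genes (0.161% higher and 0.218% lower). There were 2 at an unadjusted p under 0.05, Pdcd1lg2 and Cd40, and DESeq2 called 1. Pdcd1lg2 was nearest, at -0.40 (SE 0.0874, adjusted p = 0.0533), and passed with DESeq2 (adjusted p = 0.0169) and without cDC2 WT replicate 1 or 3 (0.0282 and 0.0084). The replicate block called 4, Pdcd1lg2, Cd40 and Cd274 lower and Cd83 higher with RIPK3, over a background of 14.3%.

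The intervals bound the difference between the kinds of debris for members that did not pass. In cDC1s the 95% interval of RIPK3 against BimS was -0.13 to 0.10 for Cd80, -0.03 to 0.16 for Cd83, -0.02 to 0.19 for Cd274 and -0.30 to -0.03 for Icosl, on the log2 scale. For Cd86 it was 0.01 to 0.19, for Cd40 -0.22 to 0.03, for Ccr7 -0.38 to 0.15 and for Fscn1 -0.39 to 0.21, the widest of the 9 in cDC1s. These single intervals are not adjusted for the number of genes, and those of Icosl and Cd86 left out 0. In cDC2s the intervals were -0.17 to 0.16 for Cd80, -0.23 to 0.21 for Icosl, -0.35 to 0.13 for Ccr7, -0.09 to 0.26 for Cd86, -0.02 to 0.33 for Cd83 and -0.35 to 0.22 for Cd274. Those of Cd40 (-0.48 to -0.07) and Pdcd1lg2 (-0.58 to -0.21) left out 0, and that of Fscn1 was the widest (-0.73 to 0.34). Missing the threshold does not show that the 2 media act alike.

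The interaction between cell type and medium asked whether cDC1s and cDC2s responded differently. Both types were sorted from shared cultures, whereas the unblocked fit treats their samples as unpaired, as in the comparison of the types with WT medium. In edgeR's unblocked fit 0 of the 9 passed in any of the 3 interactions, where 0.87% of all genes passed for BimS against WT, 1.14% for RIPK3 against WT and 0.0314% for RIPK3 against BimS. At an unadjusted p under 0.05 there were 2, 1 and 1 members, and DESeq2 called 0 in each. Nearest for the comparisons with WT were Ccr7 and Cd80, whose log2 fold changes were more negative in cDC1s. The interaction of Ccr7 was -0.37 for BimS (95% interval -0.72 to -0.01, adjusted p = 0.577) and -0.38 for RIPK3 (-0.75 to 0.00, adjusted p = 0.585). That of Cd80 was -0.20 (-0.38 to -0.01, adjusted p = 0.538) and -0.21 (-0.40 to -0.01, adjusted p = 0.516). Icosl gave 0.15 (-0.07 to 0.37) and -0.01 (-0.24 to 0.22), and Cd274 -0.10 (-0.39 to 0.20) and 0.04 (-0.27 to 0.36). With the replicate number as a factor over both cell types, Fscn1 alone passed for BimS (0.50, adjusted p = 0.0495, background 2.32%) and for RIPK3 against WT (0.54, adjusted p = 0.0387, background 2.35%), and 0 passed for RIPK3 against BimS (2 at an unadjusted p under 0.05). A count of calls is no test of a difference between the cell types: unblocked, BimS medium gave 8 calls in cDC1s and 2 in the other type, and RIPK3 medium 6 and 2, whereas with the block these counts were 9 and 8, and 6 and 8.

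The order of the 6 group means shows which members follow the cell type and which the medium. Cd80, Ccr7 and Fscn1 were higher in all 3 groups of cDC2s than in any group of cDC1s, and Pdcd1lg2 higher in all groups of cDC1s. The highest group mean was 14.9 times the lowest for Fscn1, 3.82 times for Ccr7, 3.66 times for Cd80 and 3.47 times for Pdcd1lg2. Icosl, with a span of 2.26 times, had both WT groups above all 4 groups with debris, and Cd274, with 1.296 times, had both WT groups below them. For Cd274, 4 of the 5 neighbouring pairs in the order overlapped, as they did for Cd86. Cd40 ran from cDC1 WT down to cDC2 RIPK3 at a span of 1.77 times, with overlap between cDC1 BimS and cDC1 RIPK3 and between cDC1 RIPK3 and cDC2 WT. In Cd83, with a span of 1.65 times, cDC2 WT fell between the groups of cDC1s with debris and overlapped with both.

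Of 7783 genes with a mean log2 CPM of at least 3, those whose log2 CPM followed a member most closely over the 17 samples are given as a description. The samples fall into 2 cell types, and the correlations of members that differ between the types rest mainly on that difference. For Fscn1 they were Mreg (r = 0.995), Gucd1 (r = 0.993) and Il12rb2 (r = 0.992); for Ccr7 Cyb5r3 (r = 0.989), Tbc1d4 (r = 0.987) and AA467197 (r = 0.986); for Cd80 Rgs2 (r = 0.996), Tcf4 (r = 0.995) and Lzts1 (r = 0.994); and for Pdcd1lg2 Gm50069 (r = 0.994), Mtmr14 (r = 0.994) and Gpr82 (r = 0.994). For members that moved with the medium the nearest were, for Icosl, Klrb1b (r = 0.959), Tnip3 (r = 0.957) and Arhgap9 (r = 0.951) and, for Cd274, Scaf11 (r = 0.940), Tent4b (r = 0.939) and Pcf11 (r = 0.918). For Cd40 they were Parp12 (r = 0.961), Mgat1 (r = 0.952) and Gng2 (r = 0.948), for Cd83 Mob3c (r = 0.951), Uchl5 (r = 0.951) and Rnpep (r = 0.947), and for Cd86 Rbks (r = 0.927), Rpl11 (r = 0.911) and Nfkbil1 (r = 0.907).

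Further ligands that costimulate or inhibit T cells were counted from a list of 21, of which 19 were tested. In cDC1s 2 rose and 5 fell with BimS and likewise 2 rose and 5 fell with RIPK3, and in cDC2s 0 rose and 2 fell with each. These counts stand against 13.2% and 16.5% of all genes in cDC1s and 7.01% and 7.21% in cDC2s. The median of the 19 was -0.34 and -0.16 in cDC1s and -0.27 and -0.19 in cDC2s. Tnfsf9, the 4-1BB ligand, fell by 0.55 (adjusted p = 0.035) with BimS and fell by 0.77 (adjusted p = 0.00237) with RIPK3 in cDC1s, and in cDC2s it fell by 1.01 (adjusted p = 0.00215) and fell by 0.82 (adjusted p = 0.0266), on the log2 scale. Cd48, an adhesion ligand of CD2 and CD244, fell by 0.37 (adjusted p = 0.000243) in cDC1s with BimS, and in cDC2s it fell by 0.69 (adjusted p = 0.000328) and fell by 0.70 (adjusted p = 0.00102). Among the rises, Tnfsf14 (LIGHT) went up in cDC1s by 0.79 (adjusted p = 0.0143) and 0.78 (adjusted p = 0.0134) from 1.47 CPM, and Tnfsf4, the OX40 ligand, by 0.88 (adjusted p = 0.0268) with BimS from 0.892 CPM. Lgals9, which encodes galectin-9, fell in cDC1s by 0.41 (adjusted p = 0.0416) with BimS and fell by 0.51 (adjusted p = 0.00805) with RIPK3, and Tnfrsf14, the receptor HVEM, fell by 0.51 (adjusted p = 0.0226) with RIPK3. Pvr, a ligand of CD226 and TIGIT, was higher with RIPK3 than with WT by 0.20 (adjusted p = 0.0167) and than with BimS by 0.24 (adjusted p = 0.0114).

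Of 18 components that carry CD40 and NF-kappa-B signals, all tested, 1 rose and 5 fell in cDC1s with BimS, where 7.31% of all genes rose and 5.89% fell. With RIPK3, 0 rose and 4 fell, against 8.34% and 8.19% of all genes. Their median was -0.06 and -0.07. In cDC2s 0 passed in any of the 3 comparisons of media by edgeR's unblocked fit (3, 2 and 0 at an unadjusted p under 0.05). Of all genes, 7.01% passed there for BimS against WT, 7.21% for RIPK3 against WT and 0.379% for RIPK3 against BimS. Nfkb1, whose product yields the p50 subunit, fell by 0.34 (adjusted p = 3.01e-07) with BimS and fell by 0.22 (adjusted p = 0.000369) with RIPK3 in cDC1s. Tnfaip3, the inhibitor A20, fell by 0.21 (adjusted p = 0.00861) and fell by 0.26 (adjusted p = 0.000811), and Rel fell by 0.31 (adjusted p = 0.00348) with RIPK3. Chuk, the kinase IKK-alpha, fell by 0.20 (adjusted p = 0.00351) with BimS, and Ikbkb, the kinase IKK-beta, was lower with RIPK3 than with BimS (log2 fold change -0.18, adjusted p = 0.0205). Traf3, which restrains CD40 signals, rose by 0.18 (adjusted p = 0.0383) with BimS.

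Of 4 genes that govern how long member proteins stay at the surface, 2 rose in cDC1s with BimS and 3 with RIPK3, where 7.31% and 8.34% of all genes rose, and 1 rose in cDC2s with BimS, where 3.8% did. Between the 2 kinds of debris, 1 was lower with RIPK3 in cDC1s, where 2.21% of all genes were. Marchf1, the ubiquitin ligase that removes CD86 and MHC class II, went in cDC1s from 45.01 CPM with WT to 75.5 CPM with BimS (log2 fold change 0.74, adjusted p = 2.54e-07) and 59.4 CPM with RIPK3 (log2 fold change 0.40, adjusted p = 0.000825), and was lower with RIPK3 than with BimS (log2 fold change -0.35, adjusted p = 0.00933). In cDC2s it rose from 1.42 to 3.81 CPM with BimS (log2 fold change 1.43, adjusted p = 0.000478). Cmtm6, which protects PD-L1 from degradation, rose in cDC1s with RIPK3 (log2 fold change 0.20, adjusted p = 0.000812), and Cmtm4, related to it, with both (log2 fold change 0.25, adjusted p = 0.0451, and log2 fold change 0.25, adjusted p = 0.0374). In cDC2s with RIPK3 0 of the 4 passed by edgeR, against 7.21% of all genes, and 0 had an unadjusted p under 0.05.

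For migration, a list of 23 held the CCR7 ligands, receptors for other guidance cues and genes of the actin machinery, and 20 of them were tested. In cDC1s 6 rose and 2 fell with BimS and 4 rose and 6 fell with RIPK3, and in cDC2s 2 rose and 4 fell with BimS and 0 rose and 3 fell with RIPK3. Those are 8, 10, 6 and 3 of 20, against 13.2%, 16.5%, 7.01% and 7.21% of all genes. The prostaglandin E2 receptors parted: Ptger2 rose in cDC1s by 1.01 (adjusted p = 7.29e-07) and 0.87 (adjusted p = 5.45e-06), whereas Ptger4 fell by 0.83 (adjusted p = 6.28e-05) in cDC1s with RIPK3, where it was also lower than with BimS (log2 fold change -0.57, adjusted p = 0.00645), and in cDC2s fell by 0.39 (adjusted p = 0.0282) with BimS and fell by 0.71 (adjusted p = 0.000704) with RIPK3. Gpr183, the oxysterol receptor EBI2, fell by 1.10 (adjusted p = 0.00671) in cDC1s and fell by 0.57 (adjusted p = 0.0488) in cDC2s with RIPK3. Dock8, which guides actin in cells that squeeze through tissue, fell by 0.39 (adjusted p = 9.37e-07) and fell by 0.53 (adjusted p = 1.16e-09) in cDC1s, and fell by 0.57 (adjusted p = 0.000726) in cDC2s with RIPK3. Myh9, the heavy chain of nonmuscle myosin, rose in cDC1s by 0.27 (adjusted p = 0.000128) and 0.22 (adjusted p = 0.00128) and in cDC2s with BimS by 0.41 (adjusted p = 0.0256). Evl, which lengthens actin filaments, fell with BimS by 0.54 (adjusted p = 4.75e-08) in cDC1s and fell by 0.75 (adjusted p = 0.0113) in cDC2s. Cfl1, the actin-severing cofilin, rose in cDC1s with BimS by 0.19 (adjusted p = 0.00211), Lcp1, the bundling protein L-plastin, rose in cDC2s with BimS by 0.27 (adjusted p = 0.028), and Actb, beta-actin itself, was lower with RIPK3 than with BimS in cDC1s (log2 fold change -0.25, adjusted p = 0.00172).

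A list of 28 other genes of CCR7+ mature dendritic cells, all tested, showed no common direction. In cDC1s 4 rose and 2 fell with BimS and 4 rose and 5 fell with RIPK3, and in cDC2s 0 passed with BimS by edgeR (5 at an unadjusted p under 0.05) and 1 fell with RIPK3. In cDC1s with BimS that is 6 of 28, against 13.2% of all genes, and with RIPK3 9 of 28, against 16.5%. For the cDC2 counts the shares of all genes were 7.01% with BimS and 7.21% with RIPK3. Their median was 0.03 and 0.01 in cDC1s and 0.03 and -0.14 in cDC2s. Ccl22, a chemokine of mature dendritic cells, went in cDC1s from 157 CPM with WT to 78.4 CPM with RIPK3 (adjusted p = 0.0485). Marcksl1 fell there too (log2 fold change -0.61, adjusted p = 0.0217), while Laptm4b rose with both kinds of debris (log2 fold change 0.36, adjusted p = 0.00367, and log2 fold change 0.37, adjusted p = 0.00259), as did Anxa3 (log2 fold change 0.48, adjusted p = 0.000459, and log2 fold change 0.48, adjusted p = 0.000325). Fabp5, a fatty acid carrier, was lower with RIPK3 than with WT in cDC1s (log2 fold change -0.45, adjusted p = 0.0487) and cDC2s (log2 fold change -0.39, adjusted p = 0.00635), and than with BimS in both (log2 fold change -0.82, adjusted p = 0.000889, and log2 fold change -0.47, adjusted p = 0.0141). Il15, a cytokine for NK and memory T cells, rose in cDC1s with BimS (log2 fold change 0.33, adjusted p = 0.0131), while Stat4 and Serpinb6b fell (log2 fold change -0.24, adjusted p = 0.00744, and log2 fold change -0.21, adjusted p = 0.00252). With RIPK3 the tetraspanin gene Cd63 rose there (log2 fold change 0.65, adjusted p = 0.00393), and Samsn1 was higher than with BimS (log2 fold change 0.17, adjusted p = 0.0282).

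The interferon response was followed by 10 genes, because Cd274 and Cd40 are known targets of interferons. In cDC1s 1 rose and 3 fell with BimS and 1 rose and 7 fell with RIPK3, and in cDC2s 1 rose and 7 fell with each. Of the 10 these are 4, 8, 8 and 8, against 13.2%, 16.5%, 7.01% and 7.21% of all genes. The gene that rose was Irf1 in all 4 comparisons, by 0.48 (adjusted p = 4.98e-09) and 0.44 (adjusted p = 2.83e-08) in cDC1s and 0.52 (adjusted p = 0.00024) and 0.44 (adjusted p = 0.00284) in cDC2s. Ifit1 and Ifit3, antiviral effectors, fell in cDC1s when debris was necroptotic (log2 fold change -1.34, adjusted p = 0.000152, and log2 fold change -1.45, adjusted p = 0.000984). In cDC2s Ifit1 fell by 1.09 (adjusted p = 2.42e-05) with BimS and fell by 2.66 (adjusted p = 1.09e-08) with RIPK3, and Ifit3 fell by 1.23 (adjusted p = 1.58e-05) and fell by 2.66 (adjusted p = 3.64e-08). Both were lower with RIPK3 than with BimS there (log2 fold change -1.57, adjusted p = 0.000476, and log2 fold change -1.43, adjusted p = 0.00232), as was Oasl2 (log2 fold change -0.89, adjusted p = 0.000742), which fell by 1.67 (adjusted p = 9.01e-09) from WT. Mx1 fell with BimS by 0.34 (adjusted p = 0.0372) in cDC1s and fell by 0.79 (adjusted p = 0.00109) in cDC2s. Irf9 and Stat2, partners in the factor that type I interferon activates, fell in cDC1s with BimS (log2 fold change -0.37, adjusted p = 4.72e-06, and log2 fold change -0.32, adjusted p = 0.00183), and Stat2 was lower still with RIPK3 (log2 fold change -0.31, adjusted p = 0.0106, against BimS). Irf7 fell by 0.84 (adjusted p = 0.0457) in cDC1s with RIPK3. Whether these moves are linked to those of Cd274 was not tested.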

How the data were processed

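Bulk RNA-seq of sorted cDC1s and cDC2s was analysed in 17 samples. According to the study's methods and the submitters' processing notes, the authors trimmed reads with SeqPurge, aligned them to GRCm39 with STAR 2.7.10a and deposited counts per Ensembl gene, not normalized; whether counting used strand is not given in the sources used here. Of 31239 rows, 148 without a gene identifier (0.0258% to 0.0366% of counts) were left out, and 30854 of 31091 identifiers matched GENCODE M39. Genes counted in at least 50% of the samples of a fit were tested with edgeR 4.0.16 (R 4.3.3; TMM, robust quasi-likelihood), per cell type for media and over all 6 groups for cell types and interactions, with p-values adjusted over all genes. The filter kept all 9 members. DESeq2 1.42.0, limma 3.58.1 (on log2 CPM with prior count 2, and on log2(count + 1)), other scalings and filters, a replicate block and leaving out each sample were the alternatives. The study's methods name a log2(count + 1) transformation and limma, said to be run on the raw counts and judged by an unadjusted p with a minimum fold change; edgeR was the main test here because the values are counts. The pipeline was tested on simulated data.

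Members and lists were chosen with earlier results of these data known. Beside the 9 members, the text names, per list and comparison of media, up to 3 rises and 3 falls past the threshold with a mean of at least 1 CPM, the largest by log2 fold change, some of the markers without values and some genes not reported here, and the 3 genes most correlated with each member among those with a mean log2 CPM of at least 3. Within a cell type, samples with the same replicate number deviated together from their group means: all 16 such pairs had a correlation over 0.1 (median 0.355), as had 4 of the 32 whose numbers differed. Those numbers were taken to pair samples within a cell type. In the blocked fits per cell type the spread was largely shared over genes, so their p-values may be too small. No pair of replicates agreed within sampling noise. Level per length is CPM divided by the summed exon length of the gene.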

Additional observations from a re-analysis of the deposited data

Results flagged for a closer look

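The differences of Fscn1 between RIPK3 and WT medium had opposite signs in the cell types. It was higher in 3 of 3 replicate numbers of cDC1s, by 0.16 to 0.55 on the log2 scale, and lower in 2 of 2 of cDC2s, with differences of -0.32 to -0.13. In cDC1s the difference passed neither the unblocked test (adjusted p = 0.17) nor that with the replicate block (adjusted p = 0.07), and in cDC2s it passed with the block (adjusted p = 0.00197) and not without it (adjusted p = 0.657). The interaction was 0.57 (95% interval -0.18 to 1.32) and did not pass edgeR's test (adjusted p = 0.735). With the replicate number as a factor over both cell types it was 0.54 (adjusted p = 0.0387), and with BimS medium 0.50 (adjusted p = 0.0495). Across cell types, 19 of the 24 pairs of samples with the same number had a correlation of their deviations over 0.1 (median 0.210). Where the numbers differed, 5 of 48 did (median -0.10). Unlike within a cell type, not every pair with a shared number deviated together.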

How the results depend on the processing

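Each count of members passing the test was recomputed under 8 other settings and with each sample left out. With the replicate block, which bears on comparisons within a cell type, 8 members passed in cDC2s for BimS against WT and 8 for RIPK3 against WT in place of 2 each, and 4 for RIPK3 against BimS in place of 0. The block also gave 1 in the interaction for BimS against WT and 1 in that for RIPK3 against WT, in both cases Fscn1. It changed no other call in cDC1s than that of Fscn1 for BimS against WT. limma on log2(count + 1), which has no scaling for depth, gave 4 in place of 8 in cDC1s for BimS against WT, 0 in place of 1 for RIPK3 against BimS, and 5 in place of 2 in cDC2s for RIPK3 against WT. Total counts only and no filter gave 4 each in the last of these, and DESeq2, total counts only and no filter gave 1 each, Pdcd1lg2, in cDC2s for RIPK3 against BimS. The causes were not tested. With samples left out, the counts ran from 5 to 9 for cDC1s with BimS against WT, from 0 to 2 for cDC1s with RIPK3 against BimS, from 1 to 3 for cDC2s with RIPK3 against WT and from 0 to 1 for cDC2s with RIPK3 against BimS. Of 1791 single values of members, 1721 kept their side of the threshold, 43 came to pass it and 27 ceased to pass it. Among the 1721, 85 that passed in neither fit changed sign, and 0 values that passed did.

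Counts over all genes moved too. Without 1 sample they went from 1349 to 783, 896 and 878 for cDC2s with BimS against WT (without WT replicate 2, BimS replicate 1 and BimS replicate 2), from 1387 to 916, 658 and 622 with RIPK3 against WT (without WT replicate 2, RIPK3 replicate 1 and RIPK3 replicate 2), from 73 to between 0 (without RIPK3 replicate 2) and 214 (without WT replicate 3) for RIPK3 against BimS, and from 810 to 489 in cDC1s for RIPK3 against BimS (without BimS replicate 3). The replicate block raised them from 810 to 1730 in cDC1s for RIPK3 against BimS and, in cDC2s, from 1349 to 4103 for BimS and from 1387 to 4126 for RIPK3 against WT, and from 73 to 2755 between the debris media. In the last of these, DESeq2 gave 118, filterByExpr 46, no filter 300 and limma on log2(count + 1) 148. That limma fit gave 1510 in place of 2576 in cDC1s for BimS against WT and 403 in place of 810 for RIPK3 against BimS. In the interactions of cell type with BimS over WT, RIPK3 over WT and RIPK3 over BimS, the counts of 166, 217 and 6 became 443, 449 and 27 with the block, 315, 371 and 25 with no filter, and 67, 109 and 3 with limma on log2(count + 1). For RIPK3 over BimS, DESeq2 gave 13 and limma on log2 CPM 3. Leaving out 1 sample moved the first to 93, 104 and 100 (without cDC1 WT replicate 1, cDC1 BimS replicate 1 and cDC1 BimS replicate 3), the second to 111 (without cDC2 RIPK3 replicate 2) and the third to between 0 (without cDC2 RIPK3 replicate 2) and 10 (without cDC2 WT replicate 3). In cDC2s for RIPK3 against WT, the median log2 fold change of expressed genes was -0.18 by limma on log2(count + 1) and -0.11 with total counts only, in place of -0.011. Depth limits Fscn1 in cDC1s, at 72 counts in the lowest sample. Plgrkt and Timmdc1 overlap Cd274 and Cd80 on the other strand, and reads shared with them were not told apart.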
